A study of Homo sapiens with 10 samples.

Results

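Transcripts of 48 genes of the centromere, the kinetochore, the chromosomal passenger complex and the spindle checkpoint were followed in SNU-387 cells carrying wild-type or T348I YES. The genes are a fixed list of symbols, matched through GENCODE 29 to the Ensembl identifiers of the count tables. All 48 were found among the 58174 identifiers, and all 48 passed the filter on low counts. SNU-387 is an established line from a pleomorphic hepatocellular carcinoma. It stably expressed either YES, a tyrosine kinase of the SRC family, or YES with the T348I substitution at the gatekeeper residue beside the drug-binding pocket. Dasatinib, an inhibitor of SRC-family kinases, was given at 100 nM to every culture, so wild type and T348I share the drug. Each genotype had 5 libraries, 3 with long and 2 with short sample titles (the title sets), and no culture without dasatinib was analysed here. The labels name 1 stable line per genotype and not how many clones it holds. The substitution therefore cannot be told apart from other differences between the lines. Separate cultures are not stated for the 5 libraries, and p-values measure the spread between libraries, which may be technical.

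The kinetochore is the protein assembly on centromeric chromatin that attaches chromosomes to spindle microtubules. Nucleosomes with the histone variant CENP-A mark the site, a constitutive inner layer (the CCAN) binds them throughout the cell cycle, and an outer layer (the KMN network) is added for mitosis and holds the microtubules. Unattached kinetochores produce the checkpoint complex that restrains the anaphase-promoting complex (APC/C) until every chromosome is attached. Many of these genes are known to be transcribed mainly in G2 and mitosis, under repression by the DREAM complex in resting cells and activation by MYBL2 and FOXM1 in dividing ones.

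The libraries held 10168307 to 16939029 reads in genes. Raw counts of the 48 genes ran from 75 (MIS18A) to 8532 (CENPF) reads per library. Title sets were entered in the model as a possible batch. Wild-type long-title library 1 lay below the mean of the other wild-type long-title libraries in 45 of the 48 genes, at a median difference of -0.34 in log2 CPM, and held the lowest wild-type level of 34. The share of all genes was not counted. In a principal component analysis of all genes tested, title sets parted on the first component (50.5% of the variance). Long-title libraries lay at -33.3 to -11.1 on it and short-title ones at 35.1 to 49.9. Genotypes parted on the second component (22.4%). Wild-type long-title library 1 also stood apart there. It was at -11.1 and 45.3 on the first and second component, and the other wild-type long-title libraries at -33.0 and 14.2 and at -28.0 and 15.6. Of 13 hepatocyte markers, APOC3, TTR and CYP3A4 were at 0 in all libraries and ALB and HNF4A reached at most 0.0975 and 0.135 CPM. Their sum was 10.5 to 23.6 CPM in wild type and 10.4 to 23.9 CPM under T348I, most of it SERPINA1 and AFP. Markers of leukocytes summed to at most 0.981 CPM. The mesenchymal list summed to 9807 to 28532 CPM in wild type and 6203 to 7632 CPM under T348I, with 1 of its 5 genes lower (FN1). Most of that sum was FN1, at 8725 to 26190 CPM in wild type and 4849 to 6207 CPM under T348I. VIM, CDH2, COL1A1 and ZEB1 did not pass the test. Of 3 endothelial markers 1 was lower (PECAM1), and their sum was 5.04 to 13.8 CPM in wild type and 2.63 to 4.97 CPM under T348I. Of 5 epithelial markers 1 was higher (KRT18), and their sum was 672 to 915 CPM in wild type and 858 to 999 CPM under T348I. Over all genes tested 13.7% were higher and 13.3% lower. The part of these marker differences in the results was not tested.

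Cells with T348I YES held more kinetochore and checkpoint transcript than cells with wild-type YES. Of the 48 genes 42 rose and 0 fell in edgeR's quasi-likelihood test (Benjamini-Hochberg adjusted p below 0.05, adjusted over the 13743 genes tested). Over all genes 13.7% rose and 13.3% fell. DESeq2 and limma-voom also called 0 members lower, and 0 were lower at an unadjusted p under 0.05 in any of the 3 tests. The rises were moderate: the median log2 fold change was 0.67, or 1.59-fold, against -0.030 for all genes tested, and the called members ran from 1.22-fold (NSL1) to 1.96-fold (CENPM). In 36 members every T348I library exceeded every wild-type library, which held for 6.95% of all genes. The 6 members that did not pass were CENPC, CENPT, MIS12, PMF1, MAD1L1 and CENPE. Differences in response between members were not tested. Bulk counts cannot tell more cells in a given phase of the cell cycle from more transcript per cell.

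**Figure D1:**
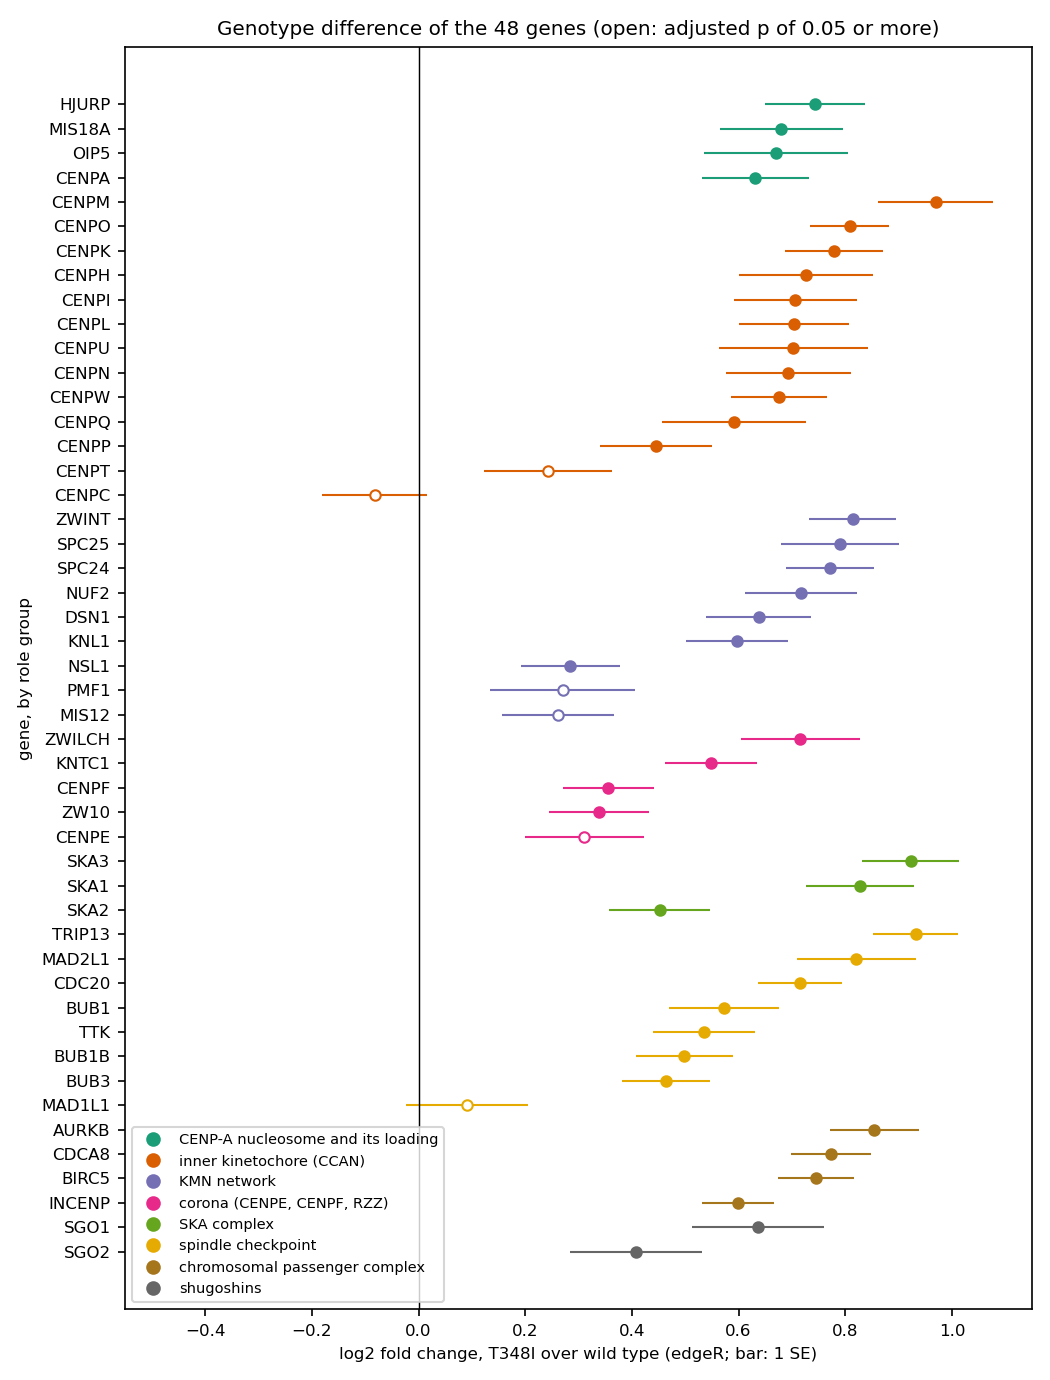
Log2 fold change of each of the 48 genes, T348I over wild type, with 1 standard error, grouped by role. Filled points passed an adjusted p under 0.05. The values run from -0.082 for CENPC to 0.97 for CENPM, and the open points are CENPC, CENPT, PMF1, MIS12, CENPE and MAD1L1.

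Promoters are shown for 5 role groups, in each for the called member with the lowest p among those with a RefSeq window that holds a CHR or CCAAT word, because members that move together invite a look at what their start sites share, and for CENPC, which did not pass the test and was chosen after its values were seen. The sequences are from RefSeq (GRCh38.p14), 200 bases before to 30 bases after the start, 5′ to 3′ on the strand of the gene. Capitals mark exact matches on either strand to the cell cycle homology region (CHR) word TTTGAA or its variant TTCGAA, to CCAAT, or to the E2F words TTTGGCGC, TTTCCCGC and TTTGGCGG. CHR is bound by the MuvB core that DREAM and MYBL2 share, and CCAAT by the factor NF-Y. ZWINT has 2 windows in the table, of which 1 is shown. BIRC5 had a lower p than CDCA8 in the passenger complex but has no window. In CDCA8 the last CCAAT match overlaps the CHR match. The windows lie at chr2:233854506-233854735 (minus strand) for HJURP, chr10:56361230-56361459 (minus strand) for ZWINT, chr1:37692316-37692545 (plus strand) for CDCA8, chr13:21176523-21176752 (minus strand) for SKA3, chr5:892684-892913 (plus strand) for TRIP13 and chr4:67545474-67545703 (minus strand) for CENPC.
HJURP: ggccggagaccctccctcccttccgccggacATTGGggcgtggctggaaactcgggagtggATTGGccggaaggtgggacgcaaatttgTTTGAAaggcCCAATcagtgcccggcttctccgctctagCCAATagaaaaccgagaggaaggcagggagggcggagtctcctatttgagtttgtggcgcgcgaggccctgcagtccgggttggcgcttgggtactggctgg
CDCA8: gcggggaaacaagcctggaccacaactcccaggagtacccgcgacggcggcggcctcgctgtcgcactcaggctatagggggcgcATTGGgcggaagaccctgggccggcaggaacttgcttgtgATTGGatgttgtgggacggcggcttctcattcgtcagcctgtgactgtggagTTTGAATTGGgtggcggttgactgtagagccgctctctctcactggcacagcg
ZWINT: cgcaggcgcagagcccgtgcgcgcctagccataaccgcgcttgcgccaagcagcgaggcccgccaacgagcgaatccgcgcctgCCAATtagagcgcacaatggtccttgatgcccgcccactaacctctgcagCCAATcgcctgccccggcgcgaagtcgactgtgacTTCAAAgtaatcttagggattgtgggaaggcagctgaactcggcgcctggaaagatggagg
SKA3: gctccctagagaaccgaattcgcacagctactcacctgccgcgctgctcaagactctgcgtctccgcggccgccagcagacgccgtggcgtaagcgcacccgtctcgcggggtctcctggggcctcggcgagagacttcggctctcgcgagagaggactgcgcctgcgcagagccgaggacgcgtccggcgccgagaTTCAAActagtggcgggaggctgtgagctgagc
TRIP13: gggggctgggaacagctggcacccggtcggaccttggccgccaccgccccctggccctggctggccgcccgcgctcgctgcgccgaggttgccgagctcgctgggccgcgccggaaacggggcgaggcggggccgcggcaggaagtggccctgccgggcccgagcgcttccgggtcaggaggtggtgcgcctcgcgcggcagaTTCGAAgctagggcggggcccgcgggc
CENPC: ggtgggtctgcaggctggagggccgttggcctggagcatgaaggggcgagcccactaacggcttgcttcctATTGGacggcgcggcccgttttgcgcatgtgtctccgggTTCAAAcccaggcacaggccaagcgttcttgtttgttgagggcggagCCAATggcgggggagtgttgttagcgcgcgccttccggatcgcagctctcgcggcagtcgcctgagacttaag

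RefSeq windows of 300 bases, 250 before to 50 after a start, were given for 39 of the 48 genes, in 45 windows because some genes have several starts. No window was matched for BIRC5, BUB3, CENPH, CENPL, CENPM, KNL1, KNTC1, MIS18A and TTK. Either CHR form stood in 51.1% of these windows (23), against 16.4% of all 35116 windows in the table. CCAAT stood in 68.9% against 34.6%, and both in the same window in 37.8% against 6.38%. Any of the 3 E2F words was found in 11.1% against 2.89%. These shares describe the gene list and do not depend on the counts. Among members that rose, 21 of the 33 with a window held a CHR form, and among the 6 that did not pass only CENPC did. CCAAT was held by 24 of the 33 and 3 of the 6, and an E2F word by 3 of the 33 and 1 of the 6. A link between these words and the rise was not tested. The promoter of CENPC carries a CHR match and 2 CCAAT matches, and its transcript was not higher in T348I libraries. CENPO, the member of the CCAN with the lowest p, has its CHR match from base 37 to base 42 after the start, outside the printed length. No word was found in the windows of CENPE, CENPT and MAD1L1, nor in those of the called members CENPI, DSN1 and NSL1.

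All 4 genes of the CENP-A nucleosome and its loading rose, with a median log2 fold change of 0.68. HJURP, the chaperone that deposits CENP-A (chromosome 2, 233833416 to 233854566, minus strand, GRCh38), had the largest change of the 4. Wild-type cells had 118, 148 and 151 CPM in the long-title and 172 and 132 CPM in the short-title set, and T348I libraries 229, 235 and 251 CPM in the long-title and 249 and 241 CPM in the short-title set. The 2 groups did not overlap, and the log2 fold change was 0.74 ± 0.093, adjusted p = 0.000159. CENPA itself (chromosome 2, 26764289 to 26801067, plus strand), the histone H3 variant, had the smallest. Levels in wild-type libraries were 18.2, 24.03 and 23.5 CPM in the long-title and 24.2 and 18.95 CPM in the short-title set, and in T348I libraries 33.4, 35.2 and 33.5 CPM in the long-title and 35.03 and 31.3 CPM in the short-title set. Every T348I library was above every wild-type one, by 0.63 ± 0.10, adjusted p = 0.000646. Both genes of the Mis18 complex that licenses centromeres for loading, MIS18A (0.68 ± 0.12, adjusted p = 0.00101) and OIP5 (0.67 ± 0.13, adjusted p = 0.00297), also rose. Short-title libraries on their own gave no call for OIP5 (0.41, adjusted p = 0.210).

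In the inner kinetochore 11 of 13 genes rose and 0 fell, with a median of 0.70. CENPM, which joins CENPH, CENPI and CENPK in one subcomplex (chromosome 22, 41938721 to 41947164, minus strand), had the highest log2 fold change of the 48. Among wild-type libraries it stood at 10.95, 9.61 and 13.8 CPM in the long-title and 10.7 and 9.70 CPM in the short-title set, and in T348I libraries 22.6, 22.1 and 23.4 CPM in the long-title and 21.4 and 18.2 CPM in the short-title set. T348I libraries were all higher, and the change was 0.97 ± 0.11, adjusted p = 7.65e-05. Its partners rose too, CENPK by 0.78 ± 0.092, adjusted p = 0.000104, CENPH by 0.73 ± 0.13, adjusted p = 0.00114 and CENPI by 0.71 ± 0.12, adjusted p = 0.000777. CENPN, which reads the CENP-A nucleosome, and its partner CENPL rose by 0.69 ± 0.12 and 0.70 ± 0.10. In the CENP-O group, CENPO (0.81 ± 0.073, adjusted p = 4.77e-05) and CENPU, the docking site of the kinase PLK1 (0.70 ± 0.14), rose, as did CENPQ (0.59 ± 0.13) and CENPP (0.44 ± 0.10). CENPQ and CENPP had adjusted p values of 0.00629 and 0.00769, and 0.0501 and 0.0511 when the 3 long-title T348I libraries were added into 1. CENPQ also lost its call without the title set term (adjusted p = 0.0640).

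The 2 genes of the inner layer that did not pass encode its linkers to the outer kinetochore. CENPC binds the CENP-A nucleosome and recruits the Mis12 complex (chromosome 4, 67468748 to 67545606, minus strand). The wild-type libraries held 16.6, 20.99 and 18.98 CPM in the long-title and 27.2 and 22.1 CPM in the short-title set, and T348I libraries 16.5, 19.1 and 16.9 CPM in the long-title and 22.8 and 24.6 CPM in the short-title set. The groups overlapped throughout, at -0.082 ± 0.098, adjusted p = 0.569, the only negative value among the 48. CENPT recruits the Ndc80 complex and held 23.4 ± 6.80 CPM in wild type and 27.4 ± 2.95 CPM in T348I cells (0.24 ± 0.12, adjusted p = 0.153). It passed once short-title wild-type library 1 was left out (0.36, adjusted p = 0.0285), the library with its highest level of all 10. That library also had 9.198% of its gene counts on mitochondrial genes, against 4.03 to 5.03% in the others, and the part of this in the result was not tested. CENPW, the histone-fold partner of CENPT, rose by 0.68 ± 0.089, adjusted p = 0.000214.

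Of the 9 KMN genes 7 rose and 0 fell, with a median of 0.64. ZWINT, which binds KNL1 and ties the RZZ complex to it (chromosome 10, 56357228 to 56361275, minus strand), had the largest change. Wild-type cells had 39.4, 49.5 and 52.1 CPM in the long-title and 44.7 and 44.2 CPM in the short-title set, and T348I libraries 81.1, 82.8 and 81.03 CPM in the long-title and 84.4 and 74.96 CPM in the short-title set. The groups were far apart, at 0.81 ± 0.081, adjusted p = 4.99e-05. The Ndc80 complex grips the microtubule, and its genes NUF2, SPC24 and SPC25 rose by 0.72 ± 0.10, 0.77 ± 0.083 and 0.79 ± 0.11. KNL1, the scaffold on which checkpoint kinases assemble, rose by 0.60 ± 0.096. Adjusted p values of these 4 ran from 6.69e-05 to 0.000685. SPC24 was not called in a model with genotype alone (adjusted p = 0.0544). Its short-title libraries lay 0.73 above its long-title ones on the log2 scale, the largest such gap of the 48, and the part of that gap in the lost call was not tested.

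Genes of the Mis12 complex, which joins the outer to the inner layer, had log2 fold changes from 0.26 to 0.64. DSN1 rose by 0.64 ± 0.098, adjusted p = 0.000520. NSL1 was at 0.28 ± 0.093, adjusted p = 0.0373, PMF1 at 0.27 ± 0.14, adjusted p = 0.158 and MIS12 at 0.26 ± 0.10, adjusted p = 0.0802. For MIS12 (chromosome 17, 5486285 to 5490814, plus strand), the wild-type libraries held 31.8, 41.6 and 33.6 CPM in the long-title and 38.01 and 27.7 CPM in the short-title set, and T348I libraries 39.8, 40.6 and 43.8 CPM in the long-title and 44.2 and 38.3 CPM in the short-title set. Wild-type long-title library 2 was above 2 of the 3 T348I long-title libraries, and without it MIS12 passed (0.34, adjusted p = 0.0162). Unmapped reads made up 8.64% of wild-type long-title library 2, against 3.11 to 5.29% of the other libraries, and the part of this in the calls of MIS12 and CENPE was not tested. MIS12 also passed when short-title wild-type library 1, the library with the high mitochondrial share, was dropped (adjusted p = 0.0483) and with the replicate block (0.0448). The call of NSL1 ended without any single library other than wild-type long-title 2, T348I long-title 3 and T348I short-title 2 (adjusted p = 0.0520 to 0.113), without the title set term (0.334), with library sizes as the scaling (0.0598) and with the long-title T348I libraries pooled (0.167). PMF1 shares 23.3% of its exon bases with the read-through gene PMF1-BGLAP on the same strand, and reads there are not assigned to either gene.

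At the outer surface, 4 of the 5 genes of CENPE, CENPF and the RZZ complex rose, with a median of 0.36. RZZ recruits MAD1, MAD2 and dynein to unattached kinetochores. ZWILCH (chromosome 15, 66504959 to 66550128, plus strand) had the largest change of the 5. Levels in wild-type libraries were 35.8, 56.4 and 38.6 CPM in the long-title and 39.00 and 45.1 CPM in the short-title set, and in T348I libraries 72.5, 68.3 and 64.8 CPM in the long-title and 75.3 and 71.6 CPM in the short-title set. No wild-type library reached the T348I range (0.72 ± 0.11, adjusted p = 0.000579). Its partners KNTC1 (0.55 ± 0.086, adjusted p = 0.000593) and ZW10 (0.34 ± 0.094, adjusted p = 0.0181) also rose. ZW10 also serves membrane traffic outside mitosis, and its call ended without T348I long-title library 1 (adjusted p = 0.0571) or short-title library 1 (0.0508), with the long-title T348I libraries pooled (0.106) and without the title set term (0.0573).

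CENPF, a coiled-coil protein that binds microtubules and dynein regulators, held 311 ± 62.3 CPM in wild type and 396 ± 62.9 CPM in T348I cells (0.36 ± 0.086, adjusted p = 0.00878). It was not called in a model with genotype alone (adjusted p = 0.184) or with the long-title T348I libraries pooled (0.0848). CENPE is the kinesin that carries chromosomes to the spindle equator (chromosome 4, 103105806 to 103198409, minus strand). Among wild-type libraries it stood at 59.1, 85.4 and 55.5 CPM in the long-title and 71.1 and 79.2 CPM in the short-title set, and in T348I libraries 76.2, 77.1 and 82.01 CPM in the long-title and 90.9 and 110.4 CPM in the short-title set. Wild-type long-title library 2 and short-title library 2 lay within the T348I range, at 0.31 ± 0.11, adjusted p = 0.0543. Without wild-type long-title library 2, the library with the high unmapped share, CENPE passed (0.44, adjusted p = 0.000913), as it did with DESeq2 (adjusted p = 0.0476), limma-voom (0.0412) and the replicate block (0.0294).

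All 3 genes of the SKA complex, which follows shortening microtubule ends, rose (median 0.83). For SKA3 (chromosome 13, 21153595 to 21176602, minus strand), wild-type libraries held 18.7, 23.7 and 24.3 CPM in the long-title and 28.9 and 26.2 CPM in the short-title set, and T348I libraries 40.6, 39.2 and 40.7 CPM in the long-title and 59.6 and 52.3 CPM in the short-title set. Its T348I libraries were all higher, and highest in the short-title set (0.92 ± 0.091, adjusted p = 4.88e-05). SKA1 rose by 0.83 ± 0.10, adjusted p = 0.000137. SKA2 (chromosome 17, 59109951 to 59155269, minus strand) rose least. The wild-type libraries held 45.3, 67.2 and 52.1 CPM in the long-title and 66.6 and 74.2 CPM in the short-title set, and T348I libraries 73.1, 79.5 and 73.1 CPM in the long-title and 92.5 and 99.2 CPM in the short-title set. The groups overlapped across but not within title sets (0.45 ± 0.095, adjusted p = 0.00389), and SKA2 was not called in a model with genotype alone (adjusted p = 0.0762).

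In the spindle checkpoint 7 of 8 genes rose and 0 fell, with a median of 0.55. TRIP13, the ATPase that remodels MAD2 and takes the checkpoint complex apart (chromosome 5, 892643 to 919357, plus strand), had the largest change. Wild-type cells had 38.5, 46.7 and 47.7 CPM in the long-title and 46.6 and 53.6 CPM in the short-title set, and T348I libraries 81.5, 79.3 and 80.5 CPM in the long-title and 106 and 99.8 CPM in the short-title set. Every T348I library was above every wild-type one (0.93 ± 0.079, adjusted p = 4.72e-05). MAD2L1, the gene of MAD2, rose by 0.82 ± 0.11, adjusted p = 0.000246, and CDC20, the APC/C coactivator that MAD2 captures, by 0.72 ± 0.079, adjusted p = 7.65e-05. Among the kinase genes BUB1 rose by 0.57 ± 0.10, adjusted p = 0.00149 and TTK, whose product starts the signal, by 0.53 ± 0.096, adjusted p = 0.00146. BUB1B, the gene of BUBR1, and its partner BUB3 rose by 0.50 ± 0.090 and 0.46 ± 0.082 (adjusted p = 0.00152 and 0.00137).

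MAD1L1, the gene of MAD1, on which MAD2 is converted to its active form, stood apart from MAD2L1 (chromosome 7, 1815793 to 2233243, minus strand). Levels in wild-type libraries were 24.4, 21.6 and 25.7 CPM in the long-title and 18.4 and 26.9 CPM in the short-title set, and in T348I libraries 23.4, 21.5 and 24.9 CPM in the long-title and 27.6 and 27.96 CPM in the short-title set. The groups overlapped, with 3 of the 5 T348I libraries inside the wild-type range (0.091 ± 0.11, adjusted p = 0.588). The value was -0.047 in the long-title libraries alone and -0.016 without wild-type short-title library 1 (the library with the high mitochondrial share), so its direction was not settled. For comparison, MAD2L1 held 47.1 ± 9.69 CPM in wild type and 83.2 ± 9.30 CPM in T348I cells, and MAD1L1 23.4 ± 3.42 CPM in wild type and 25.1 ± 2.77 CPM in T348I cells. A change in their ratio was not tested.

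All 4 genes of the chromosomal passenger complex rose (median 0.76), and none lost its call in any of the 23 alternative settings. The complex carries the kinase Aurora B to the inner centromere, where it releases faulty attachments. AURKB, its kinase gene (chromosome 17, 8204733 to 8210600, minus strand), had the largest change. Among wild-type libraries it stood at 25.4, 24.4 and 32.4 CPM in the long-title and 41.6 and 42.5 CPM in the short-title set, and in T348I libraries 52.6, 50.2 and 51.2 CPM in the long-title and 71.3 and 73.8 CPM in the short-title set. The lowest T348I library was above the highest wild-type one (0.85 ± 0.083, adjusted p = 4.81e-05). The targeting subunits borealin (CDCA8) and survivin (BIRC5) rose by 0.77 ± 0.075, adjusted p = 4.77e-05 and 0.75 ± 0.071, adjusted p = 4.77e-05. INCENP, the scaffold that activates the kinase (chromosome 11, 62123973 to 62153163, plus strand), had the smallest of the 4 changes. The wild-type libraries held 41.9, 42.9 and 49.1 CPM in the long-title and 59.2 and 62.3 CPM in the short-title set, and T348I libraries 69.4, 66.8 and 68.3 CPM in the long-title and 92.03 and 89.9 CPM in the short-title set. The groups did not overlap (0.60 ± 0.067, adjusted p = 7.65e-05).

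Shugoshins guard centromeric cohesin until anaphase. SGO1, the form that acts in mitosis (chromosome 3, 20160593 to 20186292, minus strand), rose by 0.64 ± 0.12, adjusted p = 0.00242. Wild-type cells had 9.94, 15.98 and 11.4 CPM in the long-title and 13.9 and 15.02 CPM in the short-title set, and T348I libraries 20.8, 21.1 and 21.3 CPM in the long-title and 20.4 and 19.3 CPM in the short-title set. T348I libraries were all higher and close to each other. SGO2 (chromosome 2, 200510008 to 200583782, plus strand) was at 0.41 ± 0.12, adjusted p = 0.0268. Levels in wild-type libraries were 66.8, 122 and 83.9 CPM in the long-title and 87.4 and 93.3 CPM in the short-title set, and in T348I libraries 120.3, 116 and 116 CPM in the long-title and 119 and 129.8 CPM in the short-title set. Wild-type long-title library 2 was above 4 of the 5 T348I libraries. The call of SGO2 ended when any library other than wild-type long-title 1 or 2 was left out (adjusted p = 0.0509 to 0.0655), with the long-title T348I libraries pooled (0.117) and without the title set term (0.0808).

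**Figure D2:**
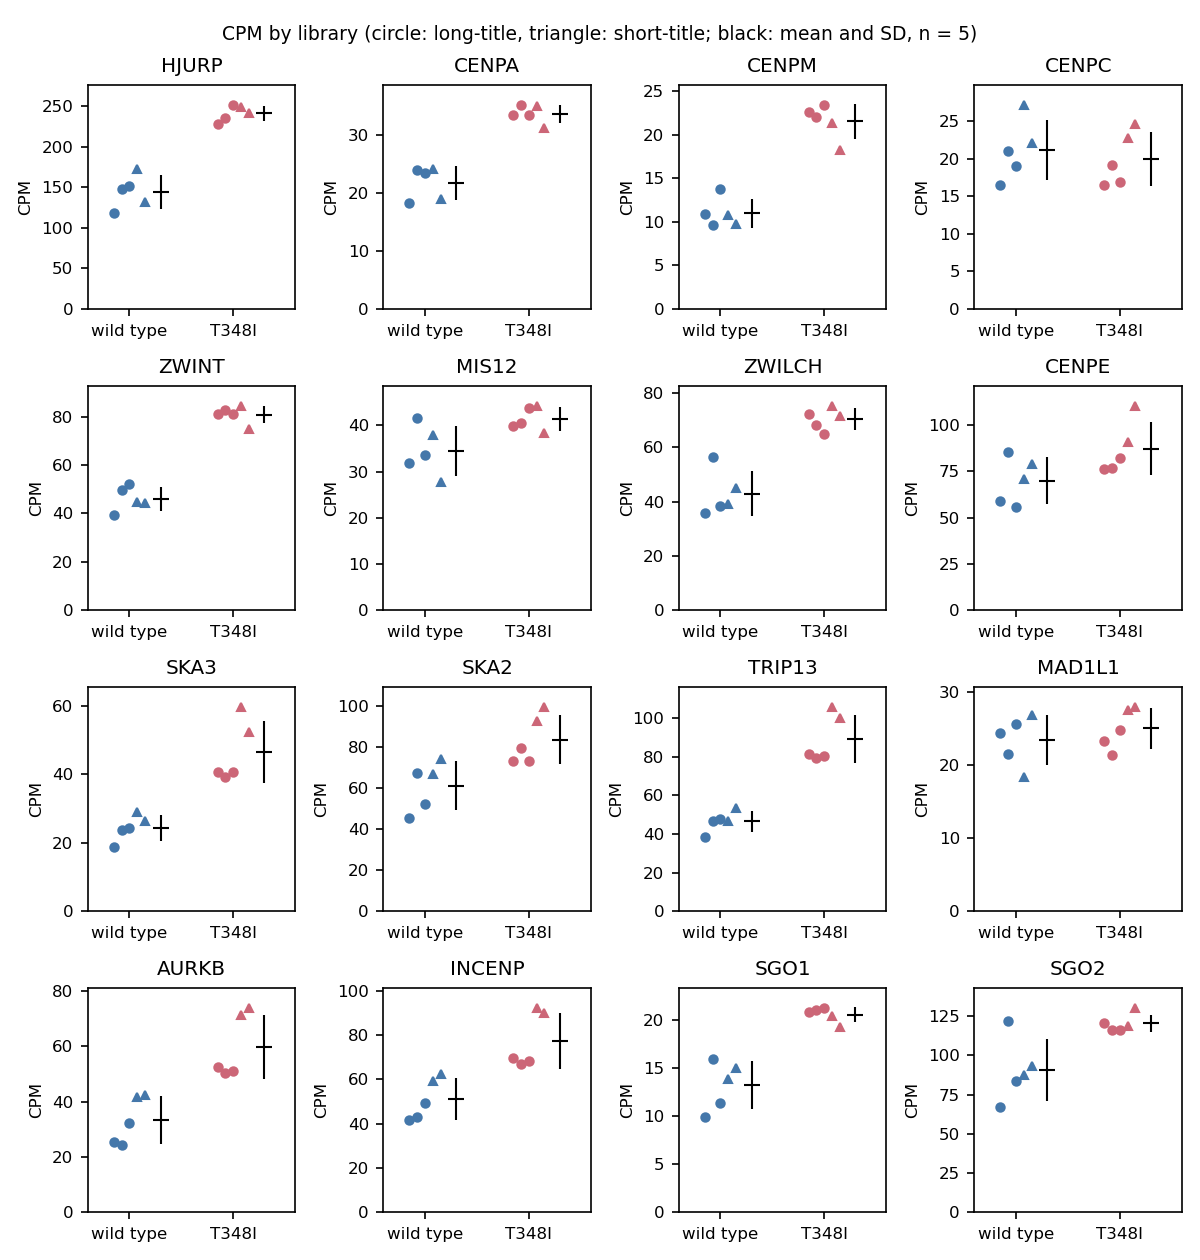
CPM in each library for the member with the largest and the member with the smallest log2 fold change of each role group. Circles are long-title and triangles short-title libraries, and black marks give mean and SD over 5 libraries. The T348I points lie above all wild-type points for HJURP, CENPA, CENPM, ZWINT, ZWILCH, SKA3, TRIP13, AURKB, INCENP and SGO1, and within the wild-type range for CENPC and MAD1L1 in most libraries.

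Levels were compared between genes as CPM per kilobase of exon, with all exons of a gene merged, a length that overstates the transcript where long isoforms are little used. In wild-type libraries the most abundant members were CDC20 at 58.4 ± 15.01 (mean ± SD, n = 5), HJURP at 37.7 ± 5.38, BIRC5 at 27.6 ± 3.59, CENPW at 27.04 ± 3.35 and CENPF at 26.6 ± 5.33 CPM per kilobase. The last 3 did not differ beyond their SDs. The scarcest were CENPP at 1.43 ± 0.175, CENPC at 2.46 ± 0.460, MAD1L1 at 3.24 ± 0.473 and SGO1 at 3.46 ± 0.658. Subunits of 1 complex can be set side by side. For the Ndc80 complex, NUF2, SPC24 and SPC25 stood at 14.6 ± 2.56, 11.8 ± 3.06 and 12.7 ± 2.17 CPM per kilobase. The passenger subunits INCENP, AURKB and CDCA8 stood at 11.4 ± 2.09, 14.8 ± 3.84 and 17.2 ± 3.65, below survivin. In the SKA complex SKA2, at 19.4 ± 3.78, was above SKA1 at 7.11 ± 1.05 and SKA3 at 8.001 ± 1.24, and SKA2 had the smallest fold change of the 3.

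**Figure D3:**
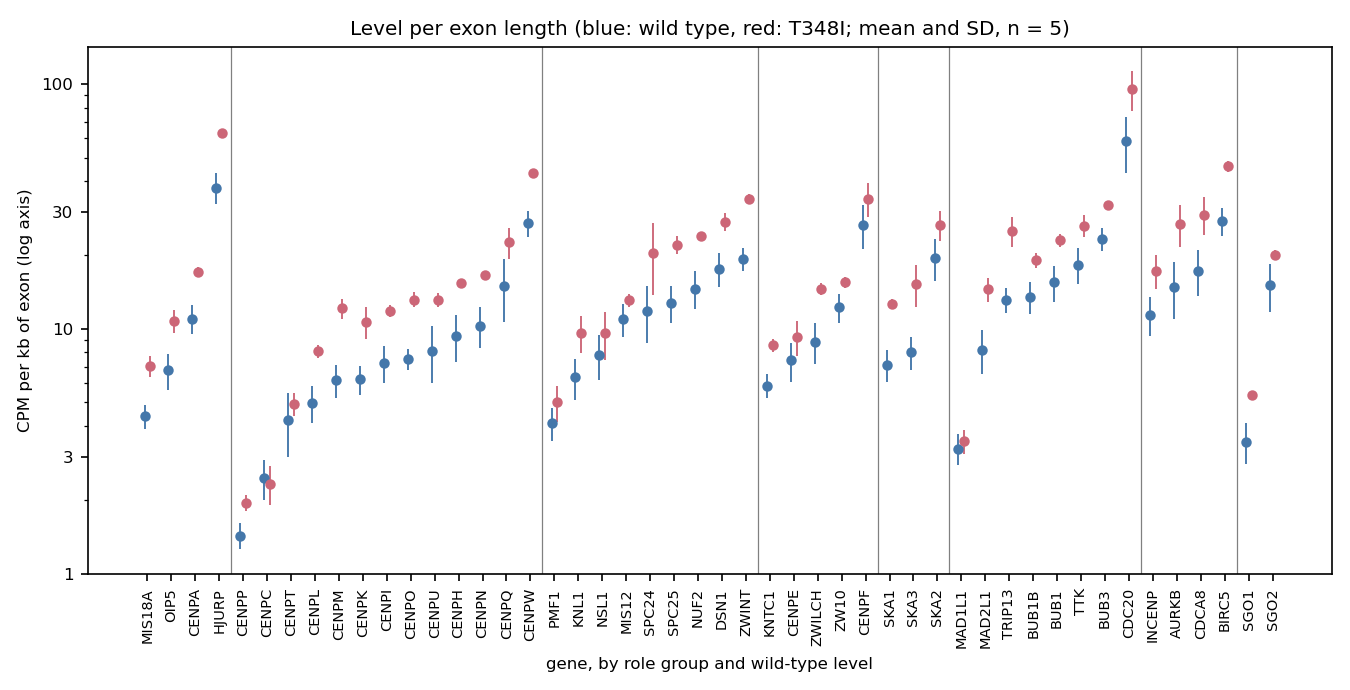
CPM per kilobase of exon on a log axis for each gene, in wild-type (blue) and T348I (red) libraries, as mean and SD over 5 libraries, ordered by wild-type level within each role group. CDC20 is the highest at 58.4 and CENPP the lowest at 1.43 in wild-type libraries.

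The difference was present in both title sets. In the long-title libraries alone 30 of the 48 genes passed and in the short-title libraries alone 36, all upward, where 5.21% and 6.43% of all genes rose. The median log2 fold changes were 0.67 and 0.63. T348I libraries were all above wild-type libraries in 41 members within the long-title set and in 45 within the short-title set, against 18.0% and 29.7% of all genes. The interaction of genotype and title set was called in 0 members and in 0.0% of all genes. It had an unadjusted p under 0.05 in 0 members in edgeR and in limma-voom, and in 459 of the 13743 genes tested in edgeR. At a share that small few members would be found, so the 0 does not set them apart. With 2 short-title libraries per genotype, the fit could also miss differences between the sets. CENPT (0.38 and 0.056), PMF1 (0.41 and 0.072) and OIP5 (0.86 and 0.41) had larger values in the long-title set, and MAD1L1 (-0.047 and 0.30) in the short-title set, and none of these differences had an unadjusted p under 0.05. Without the title set term 35 members passed, where 5.95% of all genes rose. With the long-title T348I libraries pooled 36 did, where 6.26% rose. With wild-type long-title libraries 1 and 2 left out, 44 passed, the median was 0.61 and 2304 of all genes rose. Without library 1 alone, 41 passed, the median was 0.58 and 1978 of all genes rose. The main fit had 42 members and 1884 of all genes.

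**Figure D4:**
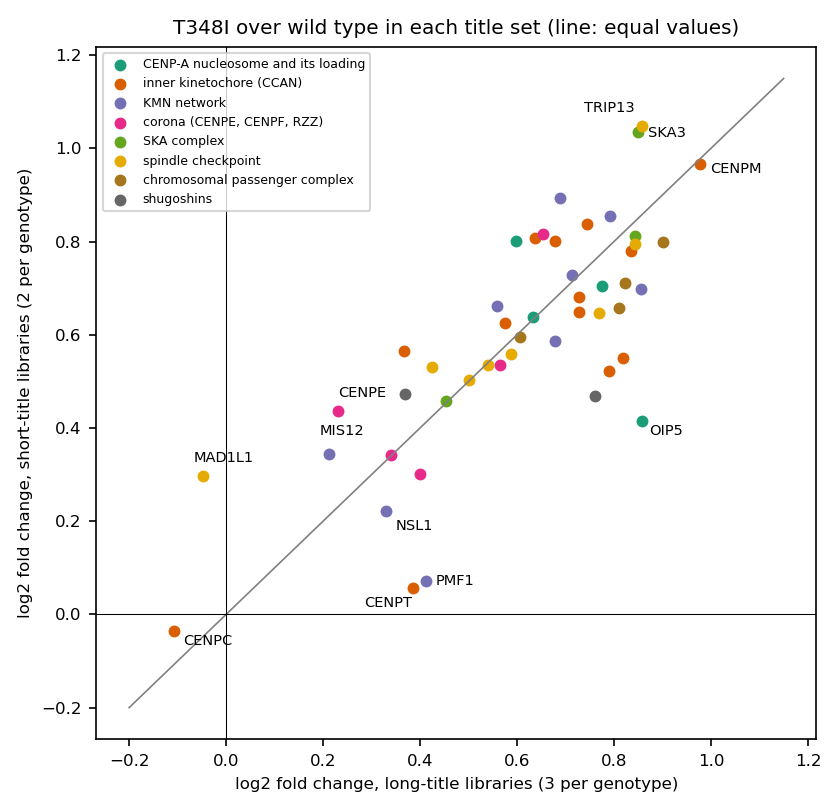
Log2 fold change of each gene in the long-title (x axis) and short-title libraries (y axis), fitted separately, with a line at equal values. CENPM, TRIP13 and SKA3 are at the upper end in both sets and CENPC is near 0 in both, with -0.11 and -0.037.

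As a mean over the 48 genes, log2 CPM relative to the wild-type mean of the same title set was 0.63, 0.63 and 0.62 in the T348I long-title libraries and 0.59 and 0.59 in the short-title ones. Wild-type libraries spread from -0.22 in long-title library 1 to 0.15 in long-title library 2. The T348I values thus lay close together, and above the highest wild-type one. Shugoshins and the SKA genes had the widest spread among wild-type libraries: their means were -0.34 and -0.28 in long-title library 1 and 0.43 and 0.19 in long-title library 2. The passenger genes varied less, from -0.089 to 0.14. Title sets themselves also differed in some members. Short-title libraries were higher than long-title ones by 0.56 in AURKB, 0.55 in CDC20 and 0.46 in CDCA8 on the log2 scale, averaged over genotypes, and lower in NSL1 (-0.51) and CENPQ (-0.36).

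**Figure D5:**
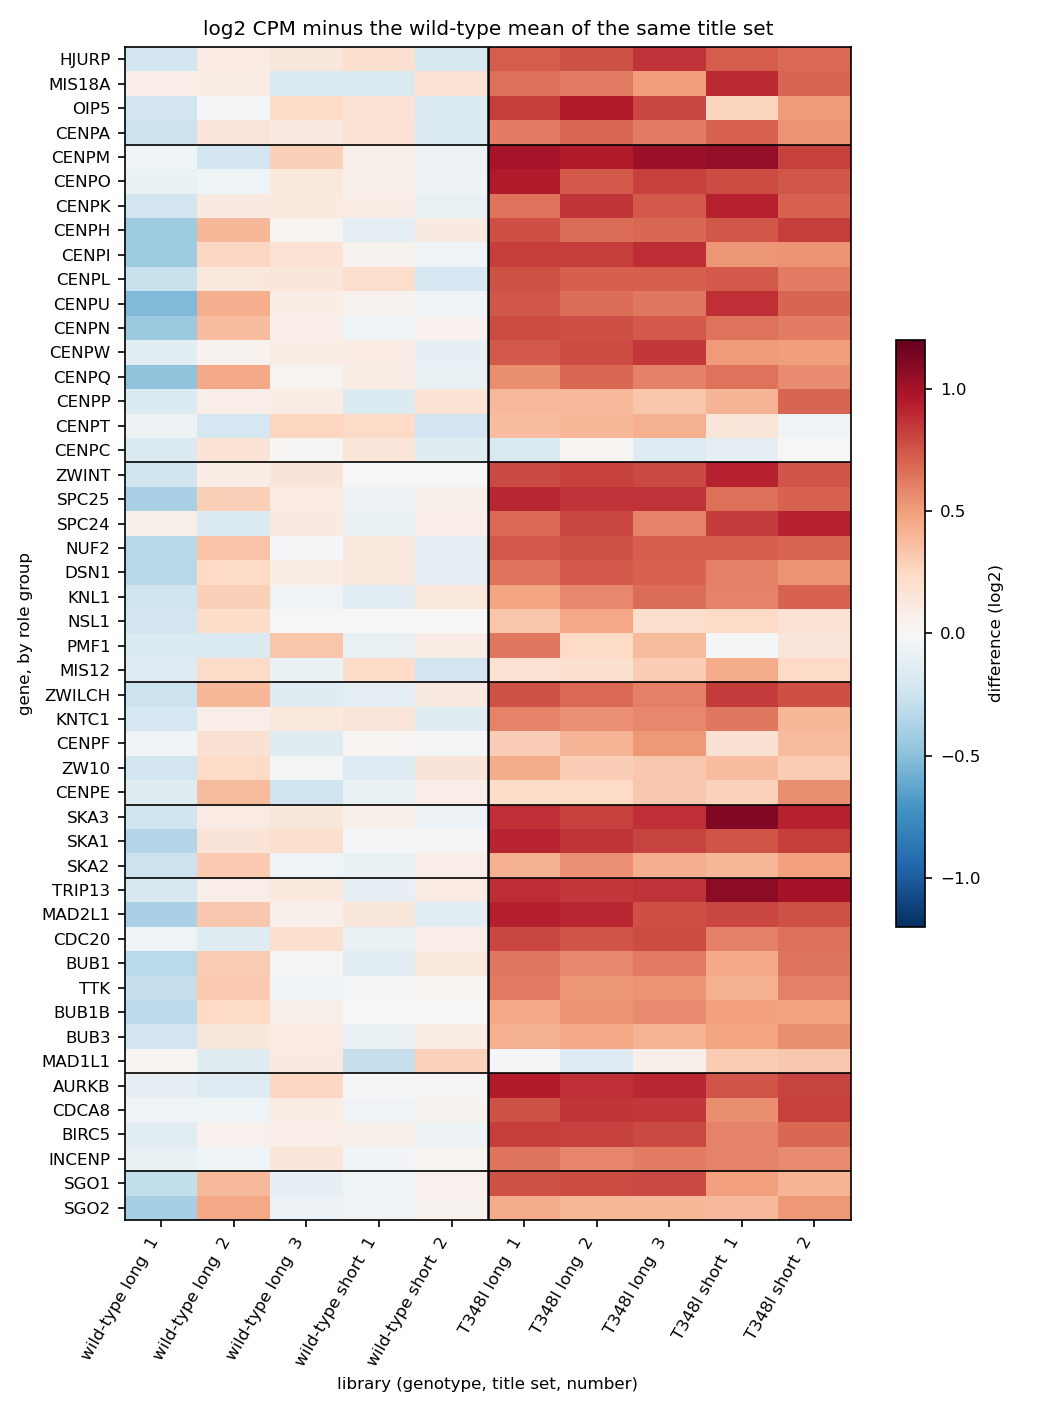
Log2 CPM of each gene in each library minus the wild-type mean of its title set, red above and blue below, with role groups parted by lines and genotypes by the vertical line. The T348I columns are red for nearly every gene, except in some libraries for CENPC, MAD1L1, CENPT and PMF1, and wild-type long-title library 1 is blue for most.

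Other genes of the same pathway were counted from lists. Beside these lists and those that follow, 13.7% of all genes rose and 13.3% fell. Of 24 further centromere and kinetochore genes 14 rose and 1 fell (median 0.31). NDC80, the partner of NUF2, rose by 0.60 ± 0.089, adjusted p = 0.000428, the histone H3 kinase gene HASPIN by 0.98 ± 0.13, adjusted p = 0.000191 and the spindle gene SPAG5 by 0.66 ± 0.069, adjusted p = 5.93e-05. CLASP1, a microtubule-stabilizing factor, fell (-0.29 ± 0.066, adjusted p = 0.00662), and lost its call with the long-title T348I libraries pooled (adjusted p = 0.0607). A list of 19 genes held subunits of the APC/C, the target of the checkpoint, a coactivator, ubiquitin-conjugating enzymes and an inhibitor. In it 4 rose and 0 fell (median 0.14). The risers were the ubiquitin-conjugating enzymes UBE2C (0.83 ± 0.081, adjusted p = 4.77e-05) and UBE2S (0.81 ± 0.11, adjusted p = 0.000209), the inhibitor FBXO5 (0.74 ± 0.11, adjusted p = 0.000428) and 1 core subunit gene, ANAPC1 (0.32 ± 0.074, adjusted p = 0.00710). A further ubiquitin-conjugating enzyme of the list, UBE2D1, did not pass (-0.16 ± 0.11, adjusted p = 0.300). Downstream of the APC/C, securin (PTTG1, 0.49 ± 0.066, adjusted p = 0.000226), separase (ESPL1, 0.75 ± 0.092, adjusted p = 0.000131) and sororin (CDCA5, 1.04 ± 0.093, adjusted p = 4.72e-05) rose, in a list where 5 of 11 rose and 0 fell.

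Among 14 genes of DREAM, MuvB and related cell cycle factors, 9 rose and 2 fell (median 0.55). The activators E2F1 (1.02 ± 0.11, adjusted p = 6.69e-05), MYBL2 (0.97 ± 0.11, adjusted p = 9.54e-05) and FOXM1 (0.80 ± 0.088, adjusted p = 7.65e-05) were higher. So were RBL1 (0.60 ± 0.12, adjusted p = 0.00354), E2F4 (0.33 ± 0.084, 0.0122) and LIN9 (0.59 ± 0.15, 0.0110). The other risers were LIN54 (0.53 ± 0.13, adjusted p = 0.00799), TFDP1 (0.56 ± 0.075, 0.000221) and E2F2 (0.83 ± 0.13, 0.000609). The part of DREAM in the rise of the 48 genes was not tested. RBL2, the gene of the DREAM pocket protein p130, was lower (-0.24 ± 0.060, adjusted p = 0.00972), but not without the title set term (adjusted p = 0.0607), the low-count filter (0.135) or with the long-title T348I libraries pooled (0.129). TFDP2 was also lower (-0.22 ± 0.076, adjusted p = 0.0487), and leaving out any library other than wild-type long-title 1 ended that call (adjusted p = 0.0520 to 0.143).

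For comparison, 37 of 38 genes of the DNA replication machinery rose, with a median log2 fold change of 0.74, and 12 of 12 mitotic kinesin genes, with a median of 0.61. The value of the 48 genes lies between these, at 0.67. Their range, -0.082 to 0.97, reached lower than that of either list, 0.26 to 1.09 and 0.34 to 0.81. Differences between the lists were not tested. GENCODE 29 names pseudogenes of 8 of the 48 genes (CENPC, CENPI, CENPU, SKA2, BUB1, BUB3, CDC20 and SGO1). Their counts come from the parts that align uniquely and are less certain. BUB1B shares 10.2% of its exon bases with BUB1B-PAK6 and CENPA 6.96% with SLC35F6, on the same strand.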

How the data were processed

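RNA was polyA-selected and made into strand-specific libraries, per the labels' protocols. The authors deposited STAR gene counts for each of 10 libraries, as read counts per Ensembl gene in 3 columns (both strands, same strand, opposite strand). Per the submitters' processing notes, CASAVA 1.8.2, Trimmomatic 0.35, STAR 2.5.1b and GRCh38 were used. The annotation release is not given in the sources used here. The opposite-strand counts were used, since they held 92.2 to 94.5% of the stranded gene counts. Lines that name no gene (20.7 to 29.98% of a library) stayed out of library sizes and tests. Of 58174 identifiers 57836 were matched to GENCODE 29.

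Genes were kept by edgeR's filter (version 4.0.16, R 4.3.3, at a minimum count of 10 and a minimum total of 15), which left 13743, scaled by TMM, and tested with edgeR's quasi-likelihood F test with genotype and title set as terms. Standard errors (± beside a log2 fold change) are the log2 fold change divided by the root of F. CPM values use TMM-scaled library sizes and are given as mean ± SD. p-values were adjusted by Benjamini-Hochberg over all genes tested, at a threshold of 0.05. The model was tested on simulated data of this design with 13743 genes, where it recovered 8% of 50 genes changed 1.25-fold, 68% at 1.5-fold, 92% at 2-fold and 98% at 4-fold. Of the genes it called there 8.90% had not been changed, above the nominal 5%. The simulated data held no difference between title sets and changed only 50 genes per fold, where 1884 rose and 1825 fell in the real data. The rates of recovery and of false calls therefore need not hold for the real data.

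The members and lists were chosen with earlier results of these data known. All members are accounted for. Library values are printed for the member with the highest and the lowest log2 fold change of each of the 8 role groups. From each other list up to 3 called genes per direction with the lowest p are named. ANAPC1, UBE2D1 and the further risers of the DREAM list were added after their values were seen. DESeq2 1.42.0, limma-voom 3.58.1 and other scalings, filters, strands, library subsets and a block on the number were alternatives.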

Additional observations from a re-analysis of the deposited data

Results flagged for a closer look

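In 3 of the 96 groups of 5 libraries examined (48 genes in each genotype) the highest or lowest library stood far from the others by Dixon's test. Chance marks about 1 in 20 groups. CENPI was at 21.8 CPM in wild-type long-title library 1, and at 32.1 to 34.9 CPM in the other wild-type libraries. SKA1 was at 15.5 CPM in the same library, and at 21.98 to 22.7 CPM in the others. BUB1 was at 153 CPM in T348I short-title library 2, and at 132 to 137 CPM in the other T348I libraries. All 3 genes were called higher in T348I libraries also with that library left out.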

How the results depend on the processing

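In 23 alternative settings 30 to 44 of the 48 genes were higher and 0 lower, and their median log2 fold change ran from 0.58 to 0.71. Of the 42 genes called, 27 were called in every setting and 34 in every setting other than the fits of 1 title set. Leaving out each library in turn gave 39 to 44 genes higher, and 39 of the 42 kept their call throughout. Over all genes, 1884 rose and 1825 fell. Those counts were 818 and 497 without the title set term, 698 and 499 in the long-title libraries alone, 935 and 599 in the short-title libraries alone, and 899 and 563 with the long-title T348I libraries pooled. The last 3 fits have fewer libraries. The cause of the drop without the title set term was not tested. Leaving out each library in turn gave 1342 to 2379 rises and 1108 to 2297 falls, the fewest falls without T348I short-title library 1 (1108) and T348I long-title library 1 (1204). MAD1L1 turned negative in the long-title libraries alone (-0.047) and without wild-type short-title library 1 (-0.016), the cause of which was not tested. Over all fits without 1 library it ran from -0.016 to 0.15. With the replicate block 44 of the 48 genes were higher, and 1905 of all genes rose and 1836 fell. Libraries with the same number share only that number: their deviations from the group means correlated at -0.025, 0.16 and 0.075 in the long-title and 0.22 in the short-title set. Small changes were seldom recovered on the simulated data, which held fewer changed genes and no difference between title sets. The parts of depth and of the spread between libraries in that were not separated.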
